A study of Mus musculus with 384 samples.

Results

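The platelet-derived growth factor (PDGF) family was followed here in single cells of the adult mouse lung through its 6 genes, taken by name: the receptors Pdgfra and Pdgfrb and the ligands Pdgfa, Pdgfb, Pdgfc and Pdgfd. These are 6 of the 23422 genes in the unfiltered files, and all 6 were present. Lungs were taken from 2 Lgr5-CreERT2;R26-Tom animals, in which Cre driven from the Lgr5 locus leaves a lasting Tomato label after tamoxifen, and from 2 Lgr6-EGFP-CreERT2 mice, in which EGFP marks cells with an active Lgr6 locus. The mice of the study were for the most part 7 to 10 weeks old, and all cells were sorted without the surface proteins CD31, CD45, CD11b and TER119, so that endothelial, immune and red blood cells were depleted. Of 380 single-cell wells, 95 a mouse, those that passed the filter of the authors were 29 and 28 cells of Lgr5 mouse 1 and 2, and 50 and 75 cells of Lgr6 mouse 1 and 2. The mouse was the replicate.

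PDGF ligands are secreted dimers that bind 2 receptor tyrosine kinases, which pair up and phosphorylate each other when a ligand holds them together. Pdgfa and Pdgfc products act mainly through the alpha receptor, the Pdgfd product mainly through the beta receptor, and the Pdgfb product through both. Those of Pdgfc and Pdgfd are secreted in a latent form and must be cleaved first. In the lung, Pdgfra marks fibroblasts of the alveolar wall and is needed for alveolar myofibroblasts during septation, while Pdgfrb is known from pericytes and smooth muscle, which are drawn to vessels by Pdgfb from the endothelium.

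On GRCm38 (mm10) with the GENCODE vM21 annotation, Pdgfra lies on chromosome 5 from 75152292 to 75198215 (plus strand) and Pdgfa on the same chromosome from 138976014 to 138997370 (minus strand). Pdgfrb lies on chromosome 18 from 61045150 to 61085061 (plus strand). Pdgfb is on chromosome 15 from 79995874 to 80014977 (minus strand), Pdgfc on chromosome 3 from 81036416 to 81214040 (plus strand), and Pdgfd on chromosome 9 from 6168584 to 6378850 (plus strand). Values were assigned to whole genes.

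The median kept cell held 263129 and 272729 reads in the Lgr5 mice against 332588 and 1537593 in the Lgr6 mice, so Lgr6 mouse 2 was sequenced most deeply. Reads carry no molecular identifiers, so the intervals given are for counting error alone. The collagen gene Col1a1, a mesenchymal marker, was detected (a count above 0) in 160 of the kept cells. The endothelial gene Pecam1 was listed at 0 TPM (a share of all transcripts, corrected for their length) in every kept cell, and 22 cells had at least 1 TPM of the epithelial gene Epcam. The authors kept only cells under 1 TPM of Pecam1 and of the immune gene Ptprc. Low values of both genes follow from that filter. Lgr5 followed the labels, with 711 and 403 CPM (reads of a gene scaled to a common library total) in the Lgr5 mice against 29.03 and 63.7 CPM in the Lgr6 mice. Lgr6 did not separate the lines, with 30.2 and 63.9 CPM in the Lgr5 mice against 46.2 and 48.4 CPM in the Lgr6 mice.

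Pdgfrb was the most widely detected of the 6 genes and Pdgfb was all but missing. Of all kept cells, 52 (28.6%, exact Clopper-Pearson 95% interval 22.1% to 35.7%) held a read of Pdgfrb and 27 (14.8%, 10.0% to 20.9%) a read of Pdgfra. Among the ligands, Pdgfa was detected in 29 cells (15.9%, 10.9% to 22.1%), Pdgfc in 22 (12.1%, 7.73% to 17.7%) and Pdgfd in 9 (4.95%, 2.29% to 9.18%). Pdgfb was detected in 1 cell, of Lgr5 mouse 2, with 9 reads and 2.07 TPM. None of the 6 genes was detected in 78 cells.

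The mean of log2(TPM + 1) over the cells of a mouse is a level per transcript length, so the genes can be set in order by it. Pdgfrb averaged 1.73 ± 0.52 (SD, n = 4 mice) and Pdgfa 1.21 ± 0.37, followed by Pdgfc at 0.75 ± 0.21, Pdgfra at 0.67 ± 0.17, Pdgfd at 0.18 ± 0.20 and Pdgfb at 0.01 ± 0.03. Pdgfrb was above Pdgfa in 3 of 4 mice with a gap of 0.52 ± 0.48 (SD, n = 4 mice), and Pdgfa was above Pdgfc in 4 of 4 mice with a gap of 0.46 ± 0.39. Pdgfc and Pdgfra did not differ beyond their spread, since their gap was 0.08 ± 0.33 and Pdgfc was higher in 2 of 4 mice. Pdgfra was above Pdgfd in 4 of 4 mice with a gap of 0.50 ± 0.26.

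**Figure D1:**
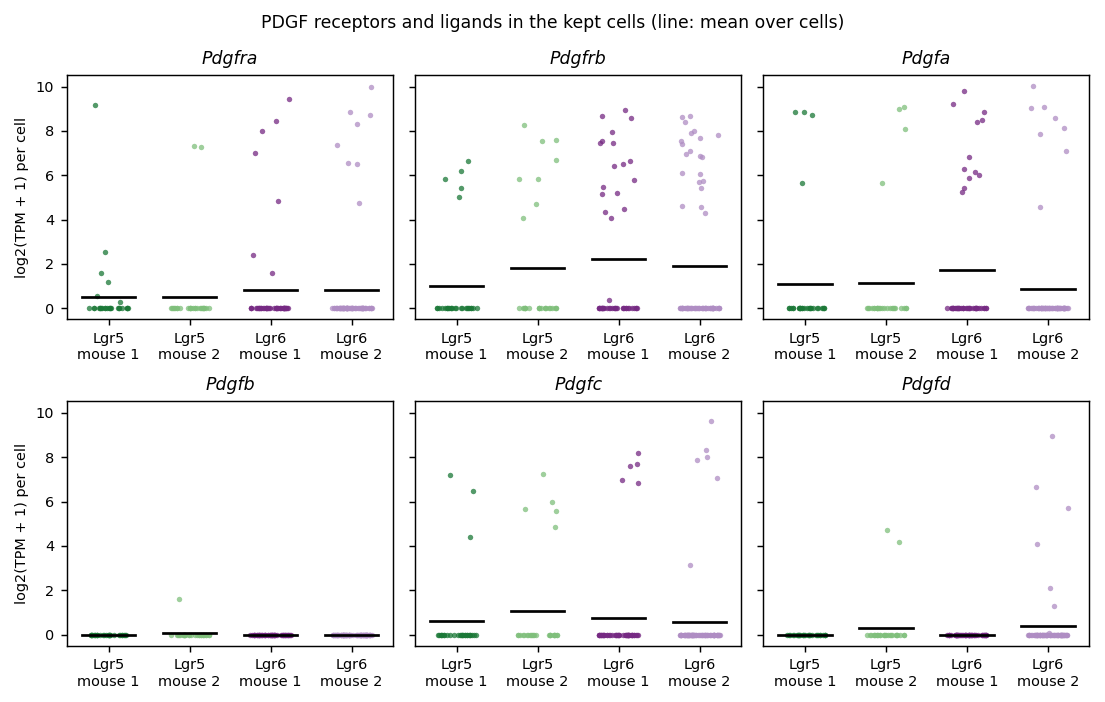
Level of each PDGF receptor and ligand in the kept cells, as log2(TPM + 1) on the y axis, by mouse on the x axis; each point is 1 cell and the black line is the mean over the cells of that mouse. Most cells of every mouse lie at 0 for every gene, and Pdgfrb has the most cells above 0 (52).

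Where a gene was detected, its level was often high, so the means above mix few cells with large values and many at 0. Of the 52 cells with Pdgfrb, 47 had more than 20 TPM and 1 had under 5 TPM. Pdgfa resembled it, with 28 of 29 cells above 20 TPM. Pdgfra was split: 16 of its 27 cells had more than 20 TPM, 11 had under 5 TPM, and 10 rested on 1 to 3 reads. Pdgfc had 17 of 22 cells and Pdgfd 4 of 9 cells above 20 TPM.

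Between the lines, no PDGF gene passed the test. Reads were added up over the cells of each mouse and compared with the quasi-likelihood test of edgeR, adjusted after Benjamini and Hochberg over 14086 genes, and none of the 5 PDGF genes tested was called at an adjusted p under 0.05 (Pdgfb had too few reads to be tested). The background was 0% of all genes called (0 of 14086), with 1312 genes at an unadjusted p under 0.05. DESeq2 called 567 genes and limma 38, 16 and 32 genes on mean TPM with pseudocounts of 1 and 0.1 and on the scaled counts, in each case without a PDGF gene.

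Pdgfra had 62.3 and 22.6 CPM in the Lgr5 mice against 72.2 and 144.9 CPM in the Lgr6 mice. Both Lgr6 mice were above both Lgr5 mice, as for 24% of all genes tested, with a log2 fold change (Lgr6 minus Lgr5) of 1.35 (standard error 0.75, adjusted p = 0.67 by edgeR). In Lgr5 mouse 1, 97.7% of the Pdgfra reads (637 of 652) came from 1 cell. The log2 fold change was 2.27 without Lgr5 mouse 1, 0.71 without Lgr5 mouse 2, 1.71 without Lgr6 mouse 1 and 0.78 without Lgr6 mouse 2. When only cells with low Acta2 were summed (below), the log2 fold change was 2.49 (adjusted p = 0.35 by edgeR).

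The sums of Pdgfrb were uneven within a line: 23.8 and 214 CPM in the Lgr5 mice against 117.3 and 98.98 CPM in the Lgr6 mice. The Lgr5 mice lay on either side of the Lgr6 mice, and the log2 fold change was -0.14 (standard error 0.94, adjusted p = 0.98 by edgeR). In Lgr5 mouse 2, 1709 of the 2802 Pdgfrb reads (60.99%) came from 1 cell, and without that mouse the log2 fold change was 2.09 (adjusted p = 0.30 by edgeR).

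For the ligands, no difference was larger than the spread between mice. Pdgfa had 16.6 and 11.2 CPM in the Lgr5 mice against 17.4 and 14.05 CPM in the Lgr6 mice, with a log2 fold change of 0.18 ± 1.10 (SE, adjusted p = 0.97, edgeR). Pdgfc had 19.99 and 5.26 CPM in the Lgr5 mice against 16.4 and 18.6 CPM in the Lgr6 mice, with a log2 fold change of 0.47 ± 1.19 (SE, adjusted p = 0.93, edgeR). The lines overlapped for both of these ligands.

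Pdgfd was the most irregular ligand, at 0 counts in Lgr5 mouse 1 and Lgr6 mouse 1 and at 24 and 1504 counts in mouse 2 of each line. Of the 1504 reads in Lgr6 mouse 2, 1198 came from 1 cell. Its log2 fold change was 2.76 (standard error 2.99, adjusted p = 0.84 by edgeR). Detection in 0 of 29 and 0 of 50 cells allows a share of cells with a Pdgfd read of up to 11.9% and 7.11% in Lgr5 mouse 1 and Lgr6 mouse 1 (upper ends of the exact 95% intervals), which does not limit the share of cells that express the gene below detection.

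Giving each cell the same weight, both receptors had higher means in both Lgr6 mice. The mean log2(TPM + 1) of Pdgfra was 0.53 and 0.52 in the Lgr5 mice against 0.83 and 0.81 in the Lgr6 mice, a difference of 0.30. That of Pdgfrb was 1.01 and 1.80 in the Lgr5 mice against 2.22 and 1.90 in the Lgr6 mice, a difference of 0.65. In each case a two-sided exact permutation test over mice gave p = 0.3333, the smallest value that 2 mice against 2 allow. Both Lgr6 mice were above both Lgr5 mice for 20.6% of the 12153 genes detected in at least 10 kept cells, beside which stand 2 of the 4 PDGF genes detected that widely (Pdgfra, Pdgfrb, Pdgfa and Pdgfc). Pdgfa, Pdgfc and Pdgfd overlapped between the lines, with differences of 0.17, -0.17 and 0.03 (exact permutation p = 1, 0.6667 and 1).

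The cells were then divided by Acta2, which encodes the smooth muscle actin of airway and vascular muscle. A cell was called Acta2-high at a log2(TPM + 1) of Acta2 of 11 or more, and 9 cells lay within 0.5 of this value. The Lgr6 mice had 27 of 50 and 38 of 75 Acta2-high cells, while the Lgr5 mice had 1 of 29 and 0 of 28, so the comparison between classes could be made only within the Lgr6 mice. Reads were summed per mouse and class and fitted by edgeR with the mouse as a block over 13529 genes. The class was defined by Acta2, whose own difference is therefore a description.

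In the Lgr6 mice, nearly all Pdgfra reads were in Acta2-lower cells. In Lgr6 mouse 1, 2012 Pdgfra reads fell in Acta2-lower cells and 8 in Acta2-high cells, and in Lgr6 mouse 2 the counts were 17501 and 2. In CPM these were 186.7 against 0.43 and 294 against 0.03. These CPM carry the TMM scaling of edgeR. On plain library totals, the ratio of lower to high was 396 in mouse 1 (exact 95% counting interval 200.3 to 917) and 9160 in mouse 2 (2535 to 75645). These intervals take each read as a separate draw and do not cover the spread between cells or mice. In mouse 1, 80.9% of the reads in Acta2-lower cells came from 1 cell.

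The fitted log2 fold change of Pdgfra (high minus lower) was -10.68 ± 1.62 (SE, unadjusted p = 0.0012), which did not pass the adjustment over all genes (adjusted p = 0.30 by edgeR). The background was low, since edgeR called 4 of 13529 genes (0.0296%), 1 of them Acta2 itself. No PDGF gene was among them. By DESeq2 Pdgfra passed with an adjusted p of 4.2e-21, but so did 6.82% of all genes, and by limma on the scaled counts it passed with an adjusted p of 0.013, beside 0.998% of all genes. It missed the threshold in the 9 other alternatives that had a test.

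The difference did not rest on 1 cell. On plain library totals, the Acta2-lower cells had 179.3 CPM in mouse 1 and 287 CPM in mouse 2. Without the cell that held most Pdgfra reads, they still had 384 reads (53.6 CPM) in mouse 1 and 11413 reads (194 CPM) in mouse 2. In Lgr6 mouse 1, the 5 Acta2-lower cells with Pdgfra had 27.2, 126.98, 252, 348 and 699 TPM, and the 2 Acta2-high cells had 2.01 and 4.25 TPM. In Lgr6 mouse 2, the 9 Acta2-lower cells with Pdgfra ranged from 0 to 1003 TPM with a median of 161.7 TPM, and both Acta2-high cells with a read were listed at 0 TPM. More than 20 TPM was reached by 5 of 23 and 8 of 37 Acta2-lower cells and by 0 of 27 and 0 of 38 Acta2-high cells.

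**Figure D2:**
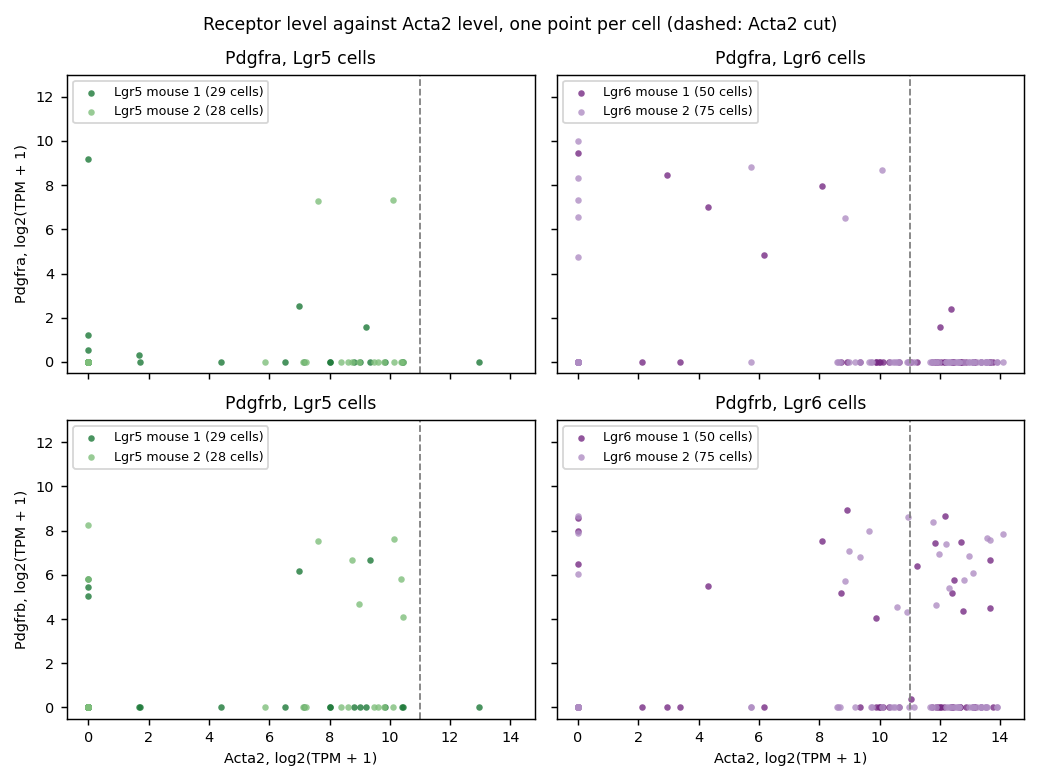
Level of Pdgfra (upper panels) and Pdgfrb (lower panels) against the level of Acta2, both as log2(TPM + 1), with 1 point per kept cell, Lgr5 cells on the left and Lgr6 cells on the right, coloured by mouse. The dashed line is the Acta2 value of 11; right of it, no Lgr6 cell exceeds 4.25 TPM of Pdgfra, whereas Pdgfrb reaches 408 TPM.

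Markers of other cell types also differed in level between the classes, though no list was tested. The summed level of 8 epithelial markers was 3289 and 22408 CPM in the Acta2-lower cells of the Lgr6 mice and 6.74 and 2.15 CPM in the Acta2-high cells (marker sums are per plain library total), and the 3 genes called lower in Acta2-high cells were Sftpc, Sftpa1 and Sftpd, surfactant genes of alveolar type II cells. The median cell had far less, 3.29 and 3.34 TPM of these markers in the lower class against 1.65 and 0.35 TPM in the high class. The highest Acta2-lower cells had 353619 and 345743 TPM. Without the cells with at least 1 TPM of Epcam, the Pdgfra log2 fold change was as large, -10.80 (adjusted p = 0.67 by edgeR). The summed level of 7 alveolar fibroblast markers was 349 and 636 CPM in Acta2-lower cells and 165.9 and 62.8 CPM in Acta2-high cells, and its part in the Pdgfra difference was not tested. The summed level of 8 endothelial markers was also higher in the Acta2-lower cells of both mice, 190.2 and 11.6 CPM against 8.67 and 0.96 CPM. The median cell of each class was at 0 TPM for these markers. Pecam1, a gene of the authors' filter, was at 0 throughout, and the part of the endothelial markers in the Pdgfra difference was not tested. The 7 pericyte markers went the other way in both mice, at 634 and 404 CPM in Acta2-lower cells against 767 and 827 CPM in Acta2-high cells. The 6 general mesenchyme markers went in opposite directions, at 13954.5 against 5507 CPM in mouse 1 and 5172 against 6522 CPM in mouse 2. Immune markers summed to at most 22.1 CPM, platelet markers to at most 4.53 CPM and erythroid markers to at most 2.23 CPM in any class of either Lgr6 mouse.

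Pdgfrb was found in both classes. It was detected in 8 of 23 and 10 of 37 Acta2-lower cells and in 10 of 27 and 11 of 38 Acta2-high cells of the Lgr6 mice. Its sums were 197 and 111.7 CPM in the Acta2-lower cells and 62.97 and 82.3 CPM in the Acta2-high cells, lower in both mice, with a log2 fold change of -1.04 ± 0.67 (SE, adjusted p = 0.95, edgeR). Without the cell with most Pdgfrb reads, the Acta2-lower cells had 138.3 and 75.1 CPM (on plain library totals). The Acta2-high cells, all kept, had 65.7 and 83.4 CPM, so the direction in mouse 2 turned without that cell. How many of all genes were lower in the high cells of both mice was not counted. Whether the differences of Pdgfra and Pdgfrb differ from each other was not tested.

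**Figure D3:**
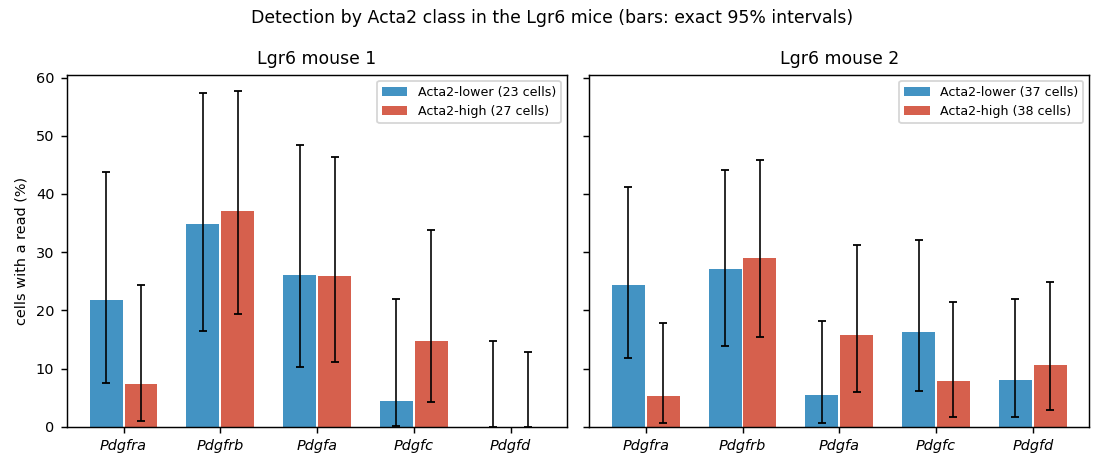
Percent of cells with a read of each gene (y axis) in the Acta2-lower and Acta2-high cells of Lgr6 mouse 1 and Lgr6 mouse 2; error bars are exact 95% intervals, and Pdgfb, not detected in these mice, is left out. Pdgfra is detected in 21.7% and 24.3% of Acta2-lower cells against 7.41% and 5.26% of Acta2-high cells, while the bars of Pdgfrb are close to each other.

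No ligand passed the test between the classes. Pdgfa had 11.1 and 14.7 CPM in Acta2-lower cells and 19.9 and 12.7 CPM in Acta2-high cells (log2 fold change 0.31 ± 1.49, SE, adjusted p = 1, edgeR). Pdgfc had 5.20 and 19.1 CPM in Acta2-lower cells and 21.9 and 17.1 CPM in Acta2-high cells (log2 fold change 0.95 ± 1.61, SE, adjusted p = 1, edgeR). For both ligands the 2 mice moved in opposite directions when all cells were kept. Without the cell with most reads, the lower cells of mouse 2 had 3.36 and 11.7 CPM (on plain library totals). The high cells, all kept, had 12.9 and 17.4 CPM, so the direction in mouse 2 turned for both ligands. These high cells were also uneven: 1 cell held 561 of 821 Pdgfa reads and another 820 of 1108 Pdgfc reads. In Lgr6 mouse 1, all 56 Pdgfc reads of the lower cells came from 1 cell. Pdgfd was at 0 in Lgr6 mouse 1 and had 3.63 CPM in the lower and 19.9 CPM in the high cells of Lgr6 mouse 2 (log2 fold change 2.34 ± 2.85, SE, adjusted p = 1, edgeR), and 93.01% of the reads in its high cells were from 1 cell.

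Depth and detection can move together, so each cell was also thinned to 99000 reads, which leaves out 19 cells. The expected share of cells with Pdgfrb was then 27.8%, against 28.6% before. For Pdgfra the share was 11.3%, against 14.8% before. In Lgr6 mouse 2, the deepest library set, thinning left Pdgfra in 22.9% of the Acta2-lower and 0.26% of the Acta2-high cells. In Lgr6 mouse 1, where 16 and 21 cells remained, the thinned shares were 12.5% and 8.26%, close to each other, although the reads there were 2012 against 8. Acta2-lower cells with 252, 699 and 27.2 TPM of Pdgfra were left out there, having only 58752, 45211 and 23393 reads. The Acta2-high cells with Pdgfra, at 445348 and 109212 reads, stayed. The thinned shares of this mouse therefore do not cover the same cells as the shares before thinning.

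Few cells held both receptors, and their number was close to what independence within a mouse gives. Both receptors were detected in 8 cells, against 7.49 expected from independence within each mouse, which leaves 19 cells with Pdgfra alone and 44 with Pdgfrb alone. The cells with Pdgfra alone had a median log2(TPM + 1) of Acta2 of 1.68, those with Pdgfrb alone 10.75 and those with both 7.30. Of the 8 cells with both, 7 were Acta2-lower, and 4 had under 5 TPM of Pdgfra. Counting a gene only above 1 TPM, 5 cells held both receptors, against 5.88 expected. These counts describe cells that share a mouse and a library plate and were not tested.

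A ligand was detected in 29.7% of the cells with no receptor read (33 cells), in 21.1% of those with Pdgfra alone, in 34.1% of those with Pdgfrb alone and in 4 of the 8 cells with both. A receptor alone was detected in 48 cells, a ligand alone in 33, both in 23 and neither in 78. Pdgfrb and Pdgfa were together in 11 cells against 8.75 expected, Pdgfrb and Pdgfc in 5 against 6.27, and Pdgfra and Pdgfa in 6 against 4.25. The observed and expected numbers were close for these 3 pairs.

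In the other pairs, which involve Pdgfc or Pdgfd, observed and expected numbers were small. Pdgfra and Pdgfc, receptor and a preferred ligand, were together in 1 cell against 3.18 expected, and above 1 TPM in 0 cells against 2.11. Pdgfrb and Pdgfd were together in 6 cells against 2.53 expected, so that 66.7% of the 9 cells with Pdgfd also held Pdgfrb. Above 1 TPM this pair was in 5 cells against 2.25, and after thinning it was expected in 3.98 cells against 1.72. Of the 6 cells with a read of both, 2 came from Lgr5 mouse 2 and 4 from Lgr6 mouse 2. Those of Lgr6 mouse 2 included cells with only 1 and 2 Pdgfd reads (1.47 and 0.035 TPM). Among the ligands, Pdgfa and Pdgfd were together in 3 cells against 1.03 expected, Pdgfa and Pdgfc in 2 against 3.39, and Pdgfc and Pdgfd in 0 against 1.20. The Pdgfd cells were deep in reads within their mouse, with a median of 2139424 against 1524650 in cells without Pdgfd in Lgr6 mouse 2 and of 617872 against 236069 in Lgr5 mouse 2, and the part of depth in the counts of these pairs was not tested.

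**Figure D4:**
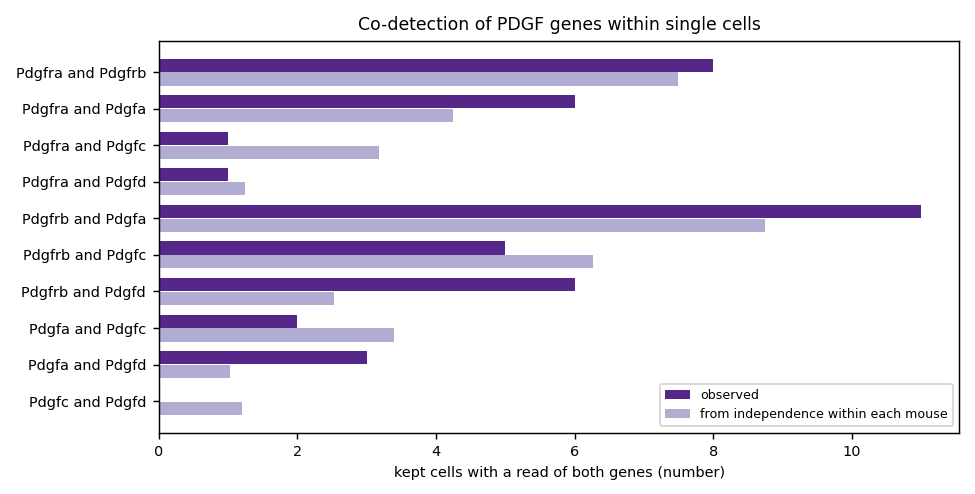
Number of kept cells with a read of both genes of a pair (dark bars) and the number that independence within each mouse gives (light bars), for the 10 pairs without Pdgfb. Pdgfrb and Pdgfd are together in 6 cells against 2.53, and Pdgfra and Pdgfc in 1 cell against 3.18.

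Cells with Pdgfra held more alveolar fibroblast markers than cells without it. Of the 7 alveolar fibroblast markers (Npnt, Tcf21, Wnt2, Col13a1, Cd34, Fgf10 and Vcam1), a cell with Pdgfra held 2.33, 2.33, 4.14 and 3.73 on average in the 4 mice, and a cell without it 0.57, 0.52, 0.42 and 0.53, higher in 4 of 4 mice. Cells with Pdgfra also held more genes of any kind in 4 of 4 mice, a median of 5042, 5668, 3417 and 4384 against 4138, 3554, 3046 and 3619, and more of the 8 epithelial markers in the Lgr5 mice (4.33 and 4.0 against 3.43 and 3.0) but not in the Lgr6 mice (1.29 and 1.55 against 1.40 and 1.73). The part of these in the marker counts was not tested. Npnt, which encodes the matrix protein nephronectin, was detected in 21 of the 27 cells with Pdgfra (77.8%) and in 31 without (20%). Wnt2, a Wnt ligand, was detected in 7 of 27 cells with Pdgfra and in 0 without, and Tcf21, a transcription factor of lung fibroblasts, in 11 with and 2 without. Cells with Pdgfra held fewer of the 8 smooth muscle markers in the Lgr6 mice (4.29 and 4.0 against 5.88 and 5.81) and slightly more in the Lgr5 mice (3.83 and 3.33 against 3.52 and 3.28).

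For Pdgfrb, the alveolar fibroblast markers went in opposite directions in the lines. A cell with Pdgfrb held 1.40 and 1.38 of them in the Lgr5 mice, against 0.83 and 0.45 in a cell without, and 0.89 and 0.62 in the Lgr6 mice, against 0.97 and 1.15. Of the 8 smooth muscle markers a cell with Pdgfrb held 4.60, 4.0, 5.50 and 5.95 in the 4 mice and a cell without it 3.38, 3.0, 5.75 and 5.39, higher in 3 of 4 mice. Of the 7 pericyte markers it held 2.40, 1.5, 1.61 and 1.81, against 1.62, 1.40, 1.56 and 1.57, higher in 4 of 4 mice by small amounts in 3 of them. General mesenchyme markers were also more numerous in 4 of 4 mice, 5.80, 5.75, 5.11 and 5.0 against 4.96, 4.90, 4.44 and 4.59. Cells with Pdgfrb held more genes in the Lgr5 mice (medians of 4566 and 3968.5 against 4159.5 and 3434.5). In the Lgr6 mice they did not (3044.5 and 3633 against 3115.5 and 3644). The part of these in the marker counts was not tested. Over all mice, Rgs5, a pericyte gene, was detected in 9 of 52 cells with Pdgfrb (17.3%) and in 9 of 130 without (6.92%). Kcnj8, a potassium channel subunit, was detected in 36 (69.2%) and 82 (63.1%). Abcc9 was at 67.3% and 59.2%, and Notch3 at 3.85% and 1.54%. Cspg4 went the other way, at 17.3% with Pdgfrb and 20.8% without. Higd1b and Trpc6 were rare in both, at 0 of 52 each with Pdgfrb and at 1 and 4 of 130 without.

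The genes whose level was most like that of Pdgfra over the kept cells, after the mean of each mouse was taken off, were Dpep1, Hsd11b1 and Vcam1, each with a Pearson correlation of log2(TPM + 1) of 0.84 (across cells, which share their mouse and are not replicates). Dpep1, a membrane dipeptidase, was detected in 15 cells, 13 of which held Pdgfra. Hsd11b1, which makes active glucocorticoid, was detected in 19 cells, 14 of them with Pdgfra, and Vcam1, an adhesion molecule, in 22 cells, 16 of them with Pdgfra. Within single mice the Vcam1 correlation ran from 0.55 in Lgr5 mouse 2 to 0.91 in Lgr6 mouse 1.

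For the other members the likest genes were far weaker. They were Pappa2 (0.40), Tnxb (0.35) and Cmtm3 (0.34) for Pdgfrb, BC005764 (0.33), Agap1 (0.29) and Crebl2 (0.29) for Pdgfa, and Zfp708 (0.40), Ttc12 (0.38) and Zfp119b (0.33) for Pdgfc. Among the members themselves the correlations of Pdgfra with Pdgfrb, Pdgfa and Pdgfc were -0.03, -0.00046 and -0.10. Values this low in sparse counts are given as a description only.

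Genes that act with the family were followed in 3 lists, and none of them was called in either comparison by edgeR with Benjamini-Hochberg adjustment. Of 10 extracellular regulators (proteases that cleave the ligands, their inhibitor, binding proteins and co-receptors), 10 were tested between the lines with a median log2 fold change of -0.18, where the median of all genes tested was 0.05. Sparc, a matrix protein that binds PDGF-B, had 438 and 567 CPM in the Lgr5 mice against 1765 and 1095 CPM in the Lgr6 mice (log2 fold change 1.51 ± 0.40, SE, adjusted p = 0.33, edgeR). Plau, a protease known to activate the Pdgfd product, went the other way, with 107.8 and 19.9 CPM against 1.86 and 3.36 CPM (log2 fold change -4.61 ± 1.21, SE, adjusted p = 0.33, edgeR). Both fell short of the threshold. The lines did not overlap for either gene, and this held for 24% (Lgr6 above) and 18.9% (Lgr6 below) of all genes tested.

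Of the 33 listed signal transducers that bind or act below the receptors, 32 were tested between the lines, with a median log2 fold change of 0.58, and 2 had an unadjusted p under 0.05 (6.25%, against 9.31% of all genes). Crk, an adaptor protein, had 15.7 and 12.8 CPM in the Lgr5 mice against 101.1 and 93.2 CPM in the Lgr6 mice (log2 fold change 2.77, adjusted p = 0.33 by edgeR). Plcg1, a phospholipase recruited to the active receptor, had 15.97 and 20.3 CPM against 84.3 and 51.4 CPM (log2 fold change 1.90, adjusted p = 0.51 by edgeR). None of the 13 brakes on the receptors had an unadjusted p under 0.05 between the lines.

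Between the Acta2 classes, 1 gene of the 3 lists had an unadjusted p under 0.05, where 7.68% of all genes did. Dusp6, a phosphatase that switches off ERK and is induced by it, had 310 and 76.8 CPM in Acta2-lower cells of the Lgr6 mice and 17.2 and 4.84 CPM in Acta2-high cells (log2 fold change -4.08 ± 0.70, SE, adjusted p = 0.38, edgeR). It was lower in the high cells of both mice, and how many of all genes were lower in both was not counted. The median log2 fold changes were -0.99 for the 10 extracellular regulators, 0.38 for 30 tested transducers and -0.32 for the 13 brakes, where all genes had 0.02.

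Wells that the filter of the authors had removed were examined next, since the ligand Pdgfb is known from endothelium. The 198 removed wells were divided by at least 1 TPM of Pecam1 (CD31, endothelial) and of Ptprc (CD45, immune), the genes and limit that the filter itself used. In the Lgr5 mice 83 removed wells had Pecam1, while the removed wells of the Lgr6 mice had none. Pdgfb was detected in 6 of 11 and 5 of 18 wells with Pecam1 alone in Lgr5 mouse 1 and 2, and in 24 of 31 and 6 of 23 wells with both markers. It was detected in 2 of 9 wells with Ptprc alone in each of these mice. In the kept cells of the Lgr5 mice it was detected in 0 of 29 and 1 of 28.

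The other PDGF genes were found in the removed wells as well. Pdgfd was detected in 7 of 11 and 8 of 18 wells with Pecam1 alone and in 22 of 31 and 10 of 23 wells with both markers, against 0 of 29 and 2 of 28 kept cells. Pdgfrb was detected in 29 of 31 and 17 of 23 wells with both markers and Pdgfra in 26 of 31 and 10 of 23. In wells with Pecam1 alone, Pdgfrb was detected in 6 of 11 and 9 of 18, against 5 of 29 and 8 of 28 kept cells. Pdgfra was detected there in 3 of 11 and 6 of 18, against 6 of 29 and 3 of 28. Pdgfa was detected there in 4 of 11 and 8 of 18, against 4 of 29 and 4 of 28. Pdgfc was not more frequent there, at 1 of 11 and 2 of 18, against 3 of 29 and 5 of 28. The wells with both markers held far more genes, a median of 11263 and 7490 genes detected against 4277 and 3640 in kept cells, with medians of 294721 and 103491 reads. The wells with Pecam1 alone also held more genes than kept cells, a median of 7520 and 5610.5. How many of all genes were detected more often in removed wells than in kept cells was not counted. The part of several cells in a well, or of the number of genes held, in the shares of any PDGF gene was not tested.

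**Figure D5:**
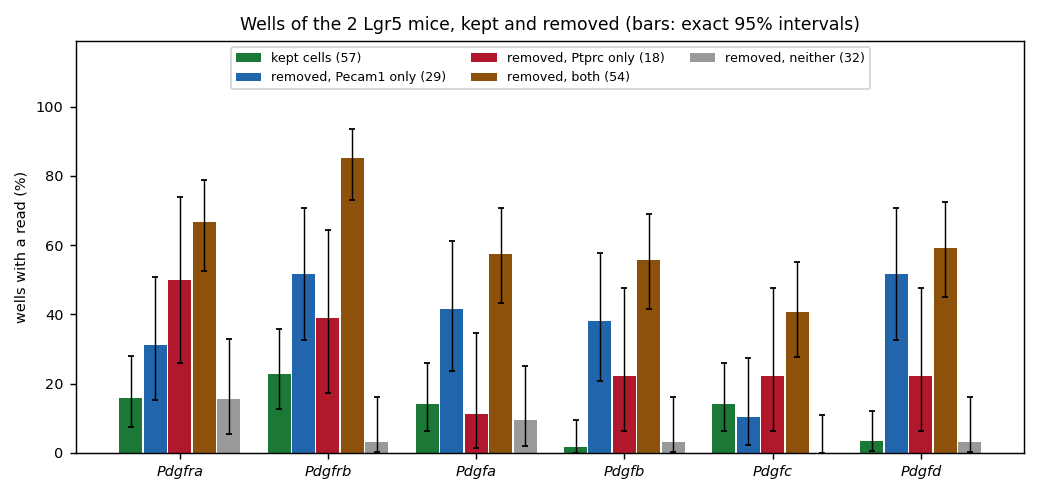
Percent of wells of the 2 Lgr5 mice with a read of each PDGF gene (y axis), for kept cells and for removed wells with Pecam1 only, Ptprc only, both or neither at 1 TPM or more; the legend gives the number of wells and error bars are exact 95% intervals. Pdgfb is found in 1.75% of kept cells and 37.9% of the wells with Pecam1 only, and Pdgfrb in 22.8% and 51.7%. Of the PDGF genes, only Pdgfc is found less often in the wells with Pecam1 only than in kept cells.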

How the data were processed

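Single cells and 1 pool per mouse were sorted into plates and amplified by a modified SmartSeq2 protocol. Per the labels, kallisto 0.43.0 was run by the authors against mouse transcripts of mm10. The authors deposited estimated counts summed per gene for all 384 wells. They also deposited log2(TPM + 1) values on a log2 scale for all wells and for the 182 kept cells, and scaled counts, a score brought to a common depth per cell, as whole numbers. The filtered values hold 22276 genes.

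Estimated counts of kept cells were rounded, summed per mouse (totals 9874249 to 124650544), or per mouse and Acta2 class where both classes had at least 3 cells, and tested with edgeR 4.0.16 in R 4.3.3 (TMM, filterByExpr, glmQLFTest). Standard errors given with edgeR were derived from its test, as the absolute log2 fold change divided by the square root of the F value. They are approximate. Alternatives used DESeq2 1.42.0 and limma 3.58.1. The edgeR tests were also run on simulated counts with a fixed spread and equal large changes. Those counts lack genes whose reads lie mostly in a few cells, so they do not show what is detectable here. Detection is a count above 0, which in 8 values of at most 3 reads stands beside a TPM of 0. Mouse numbers did not pair the lines (r = 0.039 across 14086 genes).

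Nothing says that mice of a line were processed separately beyond their plates, so p-values measure the spread between these mice. The members, gene lists and tests were chosen with earlier results of these data known. Named genes were the 6 members, listed genes past the threshold (otherwise up to 3 per list with the smallest unadjusted p under 0.05), the 3 genes most correlated with each member detected in at least 10 cells, and defining genes. Hras and Hbb-bs were not found in the files under these names. The level of 1 marker gene is not reported here. Protein and promoter sequences were not used here. Summaries used Python 3.11.15 with pandas 2.3.3, numpy 2.4.6 and scipy 1.17.1, and figures matplotlib 3.10.9.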

Additional observations from a re-analysis of the deposited data

Results flagged for a closer look

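The values here come from wells outside the comparisons. The pool of Lgr5 mouse 1 held 307 Pdgfra reads (259 TPM) among 353310 reads, and the pool of Lgr5 mouse 2 held 0 among 204948. The pool of Lgr6 mouse 1 held 14 Pdgfrb reads (81.2 TPM) among 66586 reads, and that of Lgr6 mouse 2 held 0 among 2203576, where 3 reads correspond to 1.36 CPM. No other PDGF gene had a read in a pool. With 1 pool per mouse, these values have no replicate.

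Among the 83 wells of the Lgr5 mice removed with Pecam1, Pdgfb was detected in 49.4% (95% interval 38.2% to 60.6%) and Pdgfd in 56.6% (45.3% to 67.5%). In the 57 kept cells of these mice the shares were 1.75% and 3.51%. The other PDGF genes were also detected more often in the wells with Pecam1. Pdgfra, Pdgfrb, Pdgfa and Pdgfc were in 45, 61, 43 and 25 of these 83 wells, against 9, 13, 8 and 8 of the 57 kept cells. A well with Pecam1 held a median of 8017 genes, against 4051 in the kept cells, and the part of that difference in these shares was not tested.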

How the results depend on the processing

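Between the lines, the count of PDGF genes called was 0 in the main fit and in the 14 alternatives, the fit with the mouse number as a replicate block included. Over all genes the share called rose from 0% to 4.03% (DESeq2), 2.07% (no filter on low counts), 0.270% and 0.114% (limma on mean TPM, pseudocounts 1 and 0.1) and 0.227% (limma on scaled counts), and ran from 0% to 0.217% when 1 mouse was left out, the lone mouse of a line being assumed to vary like the others. The log2 fold change of Pdgfra, 1.35, ran from 0.71 to 2.27 without 1 mouse and was 0.85 without Epcam cells. That of Pdgfrb turned to 1.28, 1.33 and 1.13 (the same 3 limma fits), 0.51 (Acta2-lower cells only) and 0.59 (replicate block), and ran from -0.98 to 2.09 without 1 mouse. That of Pdgfa turned to -0.13 (scaled counts) and -0.085 (Acta2-lower cells) and ran from -0.17 to 0.50. That of Pdgfc turned to -0.031 without Epcam cells and ran from -0.28 to 1.74, and that of Pdgfd ran from -7.00 to 11.37, where a line at 0 counts makes the fitted value no bound. The difference in mean level turned for Pdgfc to 0.95 with log2(mean TPM + 1), and in Acta2-lower cells to -0.12 for Pdgfa and -0.039 for Pdgfd. Without 1 mouse it ran from -0.26 to 0.61 (Pdgfa), -0.38 to 0.044 (Pdgfc) and -0.16 to 0.23 (Pdgfd). The cause of these turns was not tested.

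Between the Acta2 classes, 1 PDGF gene (Pdgfra) was called by DESeq2 and 1 (Pdgfra) by limma on scaled counts, and 0 by the 9 others tested. Of all genes, the share called went from 0.0296% to 6.82% (DESeq2), 0.0517% (DESeq2 size factors), 0.310% and 0.0813% (limma on mean TPM), 0.998% (scaled counts), 0.124% (Acta2 from 10 on) and 0% (without Epcam cells, no replicate block, and Acta2 from 12 on). Without 1 mouse no test is possible, and the Pdgfra value ran from -12.83 to -8.52. From an Acta2 of 10 on, where the Lgr5 mice enter, it was -5.54. The value of Pdgfa turned to -0.52 (Acta2 from 12 on) and ran from -0.16 to 0.96 without 1 mouse, and that of Pdgfc turned to -0.45, -0.47 and -0.20 (limma on mean TPM and scaled counts) and ran from -0.10 to 2.19. Of the shares of cells detected, 12 of 12 moved by less than the spread between mice. Cells with both receptors were 2.75% above 1 TPM and 2.82% after thinning, and those with Pdgfa and Pdgfc 0.032% after thinning. With 2 mice a line, a few cells carrying most reads of a gene, smaller differences were not detectable.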
